A study of Mus musculus with 8 samples.

Results

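Collagens are the main structural proteins of the extracellular matrix, and the collagen genes were followed here through 8 RNA-seq libraries of mouse embryonic stem cells and their neural derivatives. A gene counted as a member when its symbol in the deposited tables had the form Col, a number, a and a number. That rule found 44 of the 22717 genes and predicted features listed, and all 44 were in both the day 0 and the day 5 tables. Every collagen molecule is a trimer of chains in which a glycine opens each short repeat and lets the chains wind into a triple helix. Fibrillar collagens (types I, II, III, V and XI and their relatives) have 1 long helix and pack into fibrils, whereas type IV collagen has an interrupted helix and forms the sheet-like network of basement membranes. In the early mouse embryo, type IV collagen and laminin build the basement membranes beneath epiblast and endoderm, and type I collagen is a major product of fibroblasts.

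The members were placed in 8 classes, with 11 fibrillar genes, 6 genes of type IV, 3 other genes of the basement membrane zone (Col7a1, Col15a1 and Col18a1), 6 beaded-filament genes of type VI, 9 fibril-associated genes with interrupted helices (FACIT), 3 short-chain genes, 4 transmembrane genes and 2 others. All cells derived from 46C, mouse embryonic stem cells labelled as strain C57BL/6, in which GFP reports activity of the neural gene Sox1. There were 4 lines, each with 1 library per day: a line labelled LincNDIME_KO (here KO), the wild type (WT), cells carrying a short hairpin RNA aimed at Mef2c (shMef2c) and cells carrying a control hairpin (shCtrl). Day 0 libraries came from stem cells kept on irradiated mouse embryonic fibroblasts with serum and leukemia inhibitory factor. Day 5 libraries came from cells that had been re-aggregated in medium with serum replacement, and their labels call them neural progenitors. How many clones stand behind a line is not stated in the labels.

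Because each group is a single library, differences lack a replicate check, no p-values are given, and what follows describes these libraries. The files held 25996204 to 26834802 estimated reads per library at day 5 and 20312032 to 20883674 at day 0. Mef2c, the gene targeted by the hairpin, stood at 0.10 FPKM in KO (17 reads) against 0.45 in WT (77 reads) at day 5, and at 0.12 in shMef2c (20 reads) against 0.50 in shCtrl (82 reads). At day 0 it stood at 0.24 RPKM in KO against 0.23 in WT, but at 0.37 in the library labelled shMef2c (44 reads) against 0.16 in shCtrl (20 reads), which goes against the label. No feature was named NDIME, so the deletion was not checked here. Of 6 neural progenitor markers, all 6 were at 1 FPKM or more in KO, WT and shCtrl at day 5 and 3 in shMef2c, where their summed level was 25.7 FPKM, against 338 in shCtrl (69.0 in KO, against 274 in WT).

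The coding sequences show how the fibrillar and the basement membrane genes differ, and 3 stretches are printed for that reason. They were read from the GENCODE M21 coding transcripts (GRCm38), with a position counted from 1 at the first base of the start codon. Each is 90 bases long and runs 5′ to 3′, and capitals mark the codons GGN, which encode glycine, at the start of each triplet of codons in the repeat. The stretch of Col1a1 (chromosome 11, coding bases 2023 to 2112) lies in the middle of its longest repeat, and so does that of Col2a1 (chromosome 15, coding bases 2122 to 2211). The stretch of Col4a1 (chromosome 8, coding bases 433 to 522) holds the end of its longest repeat.
Col1a1: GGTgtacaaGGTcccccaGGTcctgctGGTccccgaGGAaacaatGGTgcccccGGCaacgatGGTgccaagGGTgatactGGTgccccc
Col2a1: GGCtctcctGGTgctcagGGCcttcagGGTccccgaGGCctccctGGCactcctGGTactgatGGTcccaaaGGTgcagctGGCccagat
Col4a1: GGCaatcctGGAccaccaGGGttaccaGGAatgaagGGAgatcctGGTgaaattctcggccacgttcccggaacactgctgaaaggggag
All 10 positions of the repeat were GGN codons in the Col1a1 and Col2a1 stretches, whereas in Col4a1 the repeat stopped after 6. Over whole coding sequences, with runs of 5 or more such triplets counted, the longest run of the 11 fibrillar genes had 216 to 344 triplets (median 338) and each gene had 2 or 3 runs. The longest run of the 6 type IV genes had 39 to 66 triplets (median 43.5), and each gene had 22 to 27 runs. Among the other classes, the longest run was 30 to 75 triplets in the basement membrane zone genes, 37 to 87 in the beaded-filament genes, 32 to 113 in the FACIT genes, 59 or 60 in the short-chain genes and 40 to 55 in the transmembrane genes.

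**Figure D1:**
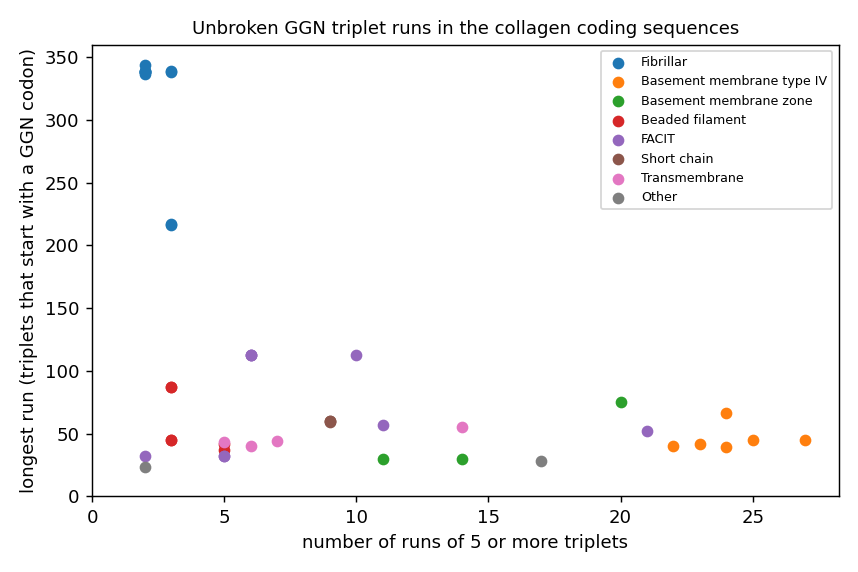
Each point is 1 of the 44 collagen coding sequences, coloured by class. The horizontal axis gives the number of unbroken runs of 5 or more triplets that start with a GGN codon, and the vertical axis gives the triplets in the longest run. Fibrillar genes lie at the upper left with 2 or 3 runs and a longest run of 216 triplets or more, and type IV genes at the lower right with 22 to 27 runs.

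Col4a1 and Col4a2, whose chains form the common type IV trimer, lie head to head, and their promoter windows are shown because both genes move in the comparisons below. Windows cover 250 bases before and 50 from the annotated first base, from RefSeq on GRCm38.p6, and 35 of the 44 genes had one. The window of Col4a1 is chr8:11312777-11313076 on the minus strand and that of Col4a2 is chr8:11312555-11312854 on the plus strand. Both are printed 5′ to 3′ on the strand of their gene, with capitals for the CCAAT box (CCAAT) and the GC box (GGGCGG), each searched on both strands.
Col4a1: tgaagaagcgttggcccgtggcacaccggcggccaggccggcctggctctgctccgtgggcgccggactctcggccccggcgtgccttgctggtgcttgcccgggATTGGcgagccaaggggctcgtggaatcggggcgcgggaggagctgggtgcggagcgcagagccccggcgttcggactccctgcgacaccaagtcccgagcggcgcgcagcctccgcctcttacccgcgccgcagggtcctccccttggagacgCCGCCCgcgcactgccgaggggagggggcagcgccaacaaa
Col4a2: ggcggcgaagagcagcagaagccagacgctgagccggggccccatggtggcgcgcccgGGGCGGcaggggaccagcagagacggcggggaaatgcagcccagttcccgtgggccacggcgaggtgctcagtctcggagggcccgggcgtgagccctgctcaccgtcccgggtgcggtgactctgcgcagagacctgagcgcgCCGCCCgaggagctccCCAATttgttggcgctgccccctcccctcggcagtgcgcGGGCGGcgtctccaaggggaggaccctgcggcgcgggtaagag
The annotated first bases lie 21 bases apart on opposite strands, and the windows share 78 bases. Neither window held the TATA box letters TATAAA or the MEF2 core letters CTANNNNTAG. Among the 35 genes with a window, 37.1% held CCAAT, against 41.1% of all 27025 genes with one. GGGCGG was in 62.9% of the collagen windows against 38.2% of all, and TATAAA in 14.3% against 15.7%. The MEF2 core letters were in 14.3% against 4.23%, in the windows of Col1a2, Col5a3, Col6a4, Col11a2 and Col24a1. That is 5 of 35 windows, and the search took any base at the N positions. A match therefore need not be a site that MEF2 proteins bind, and binding was not tested. Col4a5 and Col4a6, the chains of another basement membrane trimer, also lie head to head, on chromosome X, with first bases 1343 bases apart.

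Of the 44 collagen genes, 31 reached 1 FPKM or RPKM in at least 1 library and 13 did not. The 13 scarce genes were Col4a3, Col4a4, Col6a4, Col6a5, Col6a6, Col10a1, Col14a1, Col15a1, Col17a1, Col19a1, Col24a1, Col25a1 and Col28a1, with 0.67 as their highest level. At day 5, 4 genes reached 10 FPKM, namely Col2a1, Col4a1, Col4a2 and Col18a1. At day 0, 10 genes reached 10 RPKM, namely Col1a1, Col1a2, Col3a1, Col4a1, Col4a2, Col5a1, Col5a2, Col8a1, Col12a1 and Col18a1. In 7 genes the level of 1 was reached at day 5 but in no day 0 library (Col4a6, Col8a2, Col9a1, Col11a2, Col22a1, Col23a1 and Col26a1), and in another 7 at day 0 but in no day 5 library (Col5a3, Col6a3, Col8a1, Col12a1, Col13a1, Col16a1 and Col20a1).

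**Figure D2:**
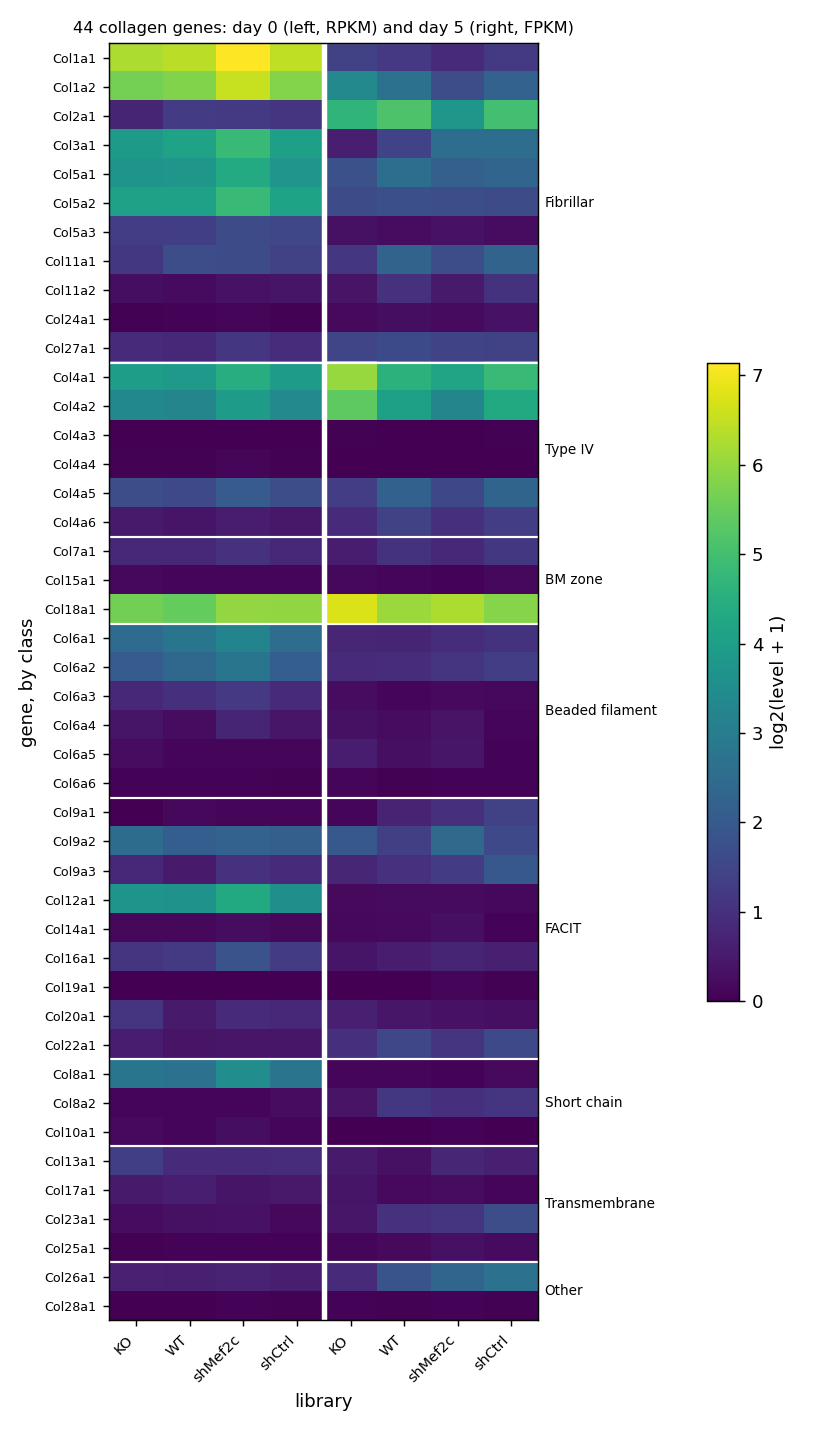
Level of each of the 44 collagen genes (rows, by class) in the 8 libraries (columns, day 0 in RPKM on the left, day 5 in FPKM on the right), as the colour scale of log2(level + 1). Col1a1 and Col1a2 are brightest at day 0, up to 140.3 RPKM, while Col4a1, Col4a2 and Col18a1 are brightest in KO at day 5, up to 109 FPKM, and 13 rows stay below 1 throughout.

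By class, day 0 libraries were led by fibrillar genes and day 5 libraries by the basement membrane zone genes, chiefly Col18a1. FPKM and RPKM are levels per gene length, but the day 5 and day 0 tables were normalized separately, so a level set across the days also carries that difference. Fibrillar genes held 60.0% of the summed collagen level in KO, 64.4% in WT, 66.4% in the library labelled shMef2c and 60.8% in shCtrl at day 0. At day 5 they held 16.2% in KO, 31.6% in WT, 20.1% in shMef2c and 29.2% in shCtrl, so their share was smaller in each line. Type IV genes held 39.6% in KO against 24.2% in WT at day 5, and 18.2% in shMef2c against 28.0% in shCtrl. In WT, shMef2c and shCtrl that was less than the fibrillar share. Basement membrane zone genes held 40.1% in KO, 36.7% in WT, 49.2% in shMef2c and 31.0% in shCtrl at day 5. Col18a1 alone held 39.9% in KO, 36.1% in WT, 48.7% in shMef2c and 30.3% in shCtrl. Summed over all 44 genes, the level was 286 RPKM in KO, 293 in WT, 473 in the library labelled shMef2c and 316 in shCtrl at day 0. The corresponding sums at day 5 were 272 FPKM in KO, 182 in WT, 157 in shMef2c and 185 in shCtrl. The KO line alone had a day 5 sum close to its day 0 sum, at a ratio of 0.953, while the ratio was 0.620 in WT, 0.332 in shMef2c and 0.587 in shCtrl.

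**Figure D3:**
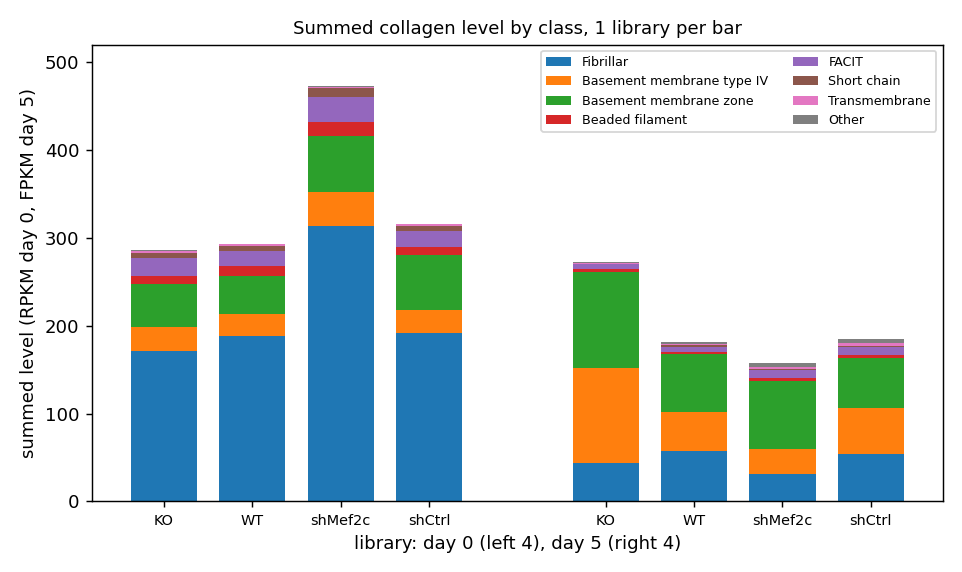
Summed level of the collagen genes by class (stacked colours) in each library, day 0 (RPKM, left) and day 5 (FPKM, right), 1 library per bar. The fibrillar part is 171 to 314 RPKM at day 0 and 31.5 to 57.4 FPKM at day 5, and the type IV part is 108 FPKM in KO at day 5 against 44.0 in WT.

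Col18a1, whose product carries the endostatin fragment and sits in basement membranes, was the most abundant collagen gene in all 4 day 5 libraries. Its level was 48.5 RPKM in KO, 42.5 in WT, 62.2 in the library labelled shMef2c and 61.7 in shCtrl at day 0. At day 5 it was 109 FPKM in KO, 65.6 in WT, 76.5 in shMef2c and 56.2 in shCtrl. The KO library was highest at day 5, and at day 0 the library labelled shMef2c and shCtrl were nearly equal and above the other pair.

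Comparing the days within each line, with ratios centred on the median of all genes, 8 collagen genes, the type I chains among them, were lower at day 5 in every line, and Col2a1 was higher in every line. Ratios were taken as log2 of (level + 1) over (level + 1) for genes whose mean across both libraries reached 1, and a gene was called higher or lower at 2-fold or more. Of the 44 collagen genes, 17 could be compared in KO, and 4 were called higher, at a background of 10.1% of all genes tested, and 9 lower (background 9.79%). In WT 19 were compared, 3 were higher (background 15.3%) and 9 lower (14.7%). In shMef2c 21 were compared, 2 were higher (9.37%) and 11 lower (9.5%), and in shCtrl 23 were compared, 5 were higher (15.3%) and 9 lower (15.3%). The median log2 ratio of the collagen genes compared was -1.23 in KO, -0.79 in WT, -1.05 in shMef2c and -0.21 in shCtrl, beside 0 for all genes by construction. This median depended on the setting. With no filter on low values it was -0.02 in KO, 0.01 in WT, -0.04 in shMef2c and -0.01 in shCtrl. With TPM it was -0.59 in KO, 0.35 in WT, -0.52 in shMef2c and 0.42 in shCtrl. Beside Col2a1, which was higher in all 4 lines, the genes called higher were Col4a1, Col4a2 and Col18a1 in KO, Col22a1 and Col26a1 in WT, Col26a1 in shMef2c, and Col9a3, Col22a1, Col23a1 and Col26a1 in shCtrl. In bulk RNA, fewer cells of a type and less RNA per cell cannot be told apart.

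Lower in all 4 lines were Col1a1, Col1a2, Col3a1, Col5a1, Col5a2, Col6a1, Col8a1 and Col12a1, which is 8 of the 17 collagen genes compared in every line, against 6.08% of all genes compared in every line. Col1a1, which encodes the α1 chain of type I collagen, stood at 76.2 RPKM in KO, 83.6 in WT, 140.3 in the library labelled shMef2c and 86.5 in shCtrl at day 0. At day 5 its level was 1.60 FPKM in KO, 1.27 in WT, 0.82 in shMef2c and 1.32 in shCtrl, so that no day 5 library came near any day 0 library. Col1a2, the gene of the α2 chain of type I, stood at 49.1 RPKM in KO, 54.1 in WT, 92.1 in the library labelled shMef2c and 55.4 in shCtrl at day 0. By day 5 it was 9.19 FPKM in KO, 5.29 in WT, 2.23 in shMef2c and 3.74 in shCtrl, with KO highest and shMef2c lowest. The day 5 libraries again lay below every day 0 library.

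Col3a1, the type III chain found with type I in soft tissues, had 13.8 RPKM in KO, 16.3 in WT, 26.9 in the library labelled shMef2c and 15.4 in shCtrl at day 0. At day 5 it had 0.52 FPKM in KO, 1.69 in WT, 5.03 in shMef2c and 4.90 in shCtrl, so shMef2c and shCtrl were highest and KO lowest. Col5a1, a chain of type V that starts fibril assembly, had 12.0 RPKM in KO, 12.6 in WT, 19.8 in the library labelled shMef2c and 12.3 in shCtrl at day 0 and 2.40 FPKM in KO, 5.02 in WT, 3.53 in shMef2c and 3.99 in shCtrl at day 5. Its partner Col5a2 had 15.9 RPKM in KO, 16.1 in WT, 27.8 in the library labelled shMef2c and 16.5 in shCtrl at day 0 and 2.18 FPKM in KO, 2.33 in WT, 2.30 in shMef2c and 2.13 in shCtrl at day 5. The 4 day 5 levels of Col5a2 were close together, whereas Col5a1 was about as low in KO as Col5a2.

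Col12a1, a FACIT collagen that decorates type I fibrils, stood at 11.9 RPKM in KO, 11.8 in WT, 19.1 in the library labelled shMef2c and 10.7 in shCtrl at day 0. It was scarce at day 5, with 0.13 FPKM in KO, 0.15 in WT, 0.16 in shMef2c and 0.11 in shCtrl. Col8a1, a short-chain collagen, showed the same picture, with 5.82 RPKM in KO, 5.40 in WT, 10.4 in the library labelled shMef2c and 5.77 in shCtrl at day 0 and 0.09 FPKM in KO, 0.10 in WT, 0.05 in shMef2c and 0.13 in shCtrl at day 5. Feeder fibroblast markers, none of them a collagen gene, were lower in part as well. In KO 7 of 11 markers compared were lower at day 5 and 2 higher, in WT 7 of 10 and 2, in shMef2c 9 of 13 and 2, and in shCtrl 7 of 12 and 3, beside the shares of all genes given above for each line. Fst, a secreted activin inhibitor, was among those higher, for example at 2.83 RPKM at day 0 and 18.3 FPKM at day 5 in KO. The summed level of the 16 markers was 86.8 RPKM in KO, 84.8 in WT, 141 in the library labelled shMef2c and 90.3 in shCtrl at day 0. At day 5 the sums were 34.0 FPKM in KO, 51.1 in WT, 48.7 in shMef2c and 47.7 in shCtrl. Of these sums, Fst alone made up 18.3 FPKM in KO, 29.1 in WT, 20.2 in shMef2c and 14.7 in shCtrl. Tcf21 was listed at 0 in KO, the library labelled shMef2c and shCtrl at day 0, Meox2 in KO and WT at day 0, and S100a4 in shCtrl at day 5. The part of feeder cells in these ratios was not tested.

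Col2a1, the chain of cartilage type II collagen that is also made by notochord and early neural epithelium, was the only collagen gene called higher at day 5 in all 4 lines, where 4.91% of all genes were. It stood at 0.68 RPKM in KO, 1.35 in WT, 1.30 in the library labelled shMef2c and 1.13 in shCtrl at day 0, with the KO library lowest. At day 5 it reached 24.6 FPKM in KO, 34.5 in WT, 12.8 in shMef2c and 31.1 in shCtrl. Col26a1, a small collagen outside the main classes, had 0.58 RPKM in KO, 0.56 in WT, 0.63 in the library labelled shMef2c and 0.51 in shCtrl at day 0 and 0.81 FPKM in KO, 2.65 in WT, 4.03 in shMef2c and 5.43 in shCtrl at day 5. It was called higher at day 5 in WT, shMef2c and shCtrl, and in KO its mean was below 1. Col4a1, Col4a2 and Col18a1 were called higher at day 5 in KO and in no other line. The log2 ratio of Col4a1 was 2.02 in KO, 0.73 in WT, -0.23 in shMef2c and 0.81 in shCtrl. That of Col4a2 was 2.05 in KO, 0.79 in WT, -0.62 in shMef2c and 0.91 in shCtrl. Both genes were thus above 0 in WT and shCtrl, but under 2-fold. Col18a1 had 1.14 in KO, 0.595 in WT, 0.33 in shMef2c and -0.21 in shCtrl. The difference of these ratios between lines was not tested.

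The type I chains changed their proportion with the day. At day 0, Col1a1 over Col1a2, as a ratio of levels per length, was 1.55 in KO, 1.54 in WT, 1.52 in the library labelled shMef2c and 1.56 in shCtrl. At day 5 Col1a2 was the more abundant chain, and the same ratio was 0.174 in KO, 0.240 in WT, 0.368 in shMef2c and 0.353 in shCtrl. The day 0 libraries were nearly equal although the library labelled shMef2c had 1.62 times the Col1a1 reads of shCtrl. For the type IV chains, Col4a1 over Col4a2 was 1.46 to 1.68 in the day 0 libraries. At day 5 this ratio was 1.59 in KO, 1.47 in WT, 1.96 in shMef2c and 1.41 in shCtrl, highest in shMef2c.

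In KO at day 5, the major type IV genes were higher than in WT and Col11a1 and Col26a1 were lower. Of the 44 collagen genes, 16 reached a mean of 1 FPKM in the pair, 2 were called higher (background 4.05% of all genes) and 2 lower (background 3.26%). The median log2 ratio of the 16 was -0.29, beside 0.00 for all genes. By class, the level summed over type IV genes was 108 FPKM in KO against 44.0 in WT, a ratio of 2.45, and that over fibrillar genes 44.2 FPKM against 57.4, a ratio of 0.770.

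Col4a1 encodes the α1 chain of type IV collagen and Col4a2 the α2 chain. Col4a1 had 64.9 FPKM in KO, 23.1 in WT, 17.0 in shMef2c and 27.1 in shCtrl at day 5, and its share of reads in KO over that in WT was 2.82 (95% interval 2.72 to 2.92). This and all further intervals are exact (Clopper-Pearson) and cover counting error only. The log2 ratio was 1.45, and KO stood above the other 3 libraries. At day 0 Col4a1 had 15.1 RPKM in KO, 13.3 in WT, 20.7 in the library labelled shMef2c and 14.2 in shCtrl. Col4a2 had 40.8 FPKM in KO, 15.7 in WT, 8.69 in shMef2c and 19.3 in shCtrl at day 5, a read ratio of KO over WT of 2.60 (95% interval 2.49 to 2.72) and a log2 ratio of 1.33. Its day 0 levels were 8.99 RPKM in KO, 8.51 in WT, 14.2 in the library labelled shMef2c and 9.26 in shCtrl. Against shCtrl in place of WT the log2 ratios of KO were 1.23 for Col4a1 and 1.04 for Col4a2. The control libraries differed less, with a read ratio of shCtrl over WT of 1.18 (95% interval 1.13 to 1.23) for Col4a1 and of 1.23 (95% interval 1.17 to 1.30) for Col4a2.

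The X-linked type IV genes lay on the other side of WT. Col4a5 had 1.44 FPKM in KO against 3.64 in WT, a read ratio of 0.397 (95% interval 0.341 to 0.461) and a log2 ratio of -0.93, just short of the call. Col4a6 had 0.84 FPKM in KO against 1.63 in WT, with a read ratio of 0.519 (95% interval 0.422 to 0.635). Col18a1 had a read ratio of KO over WT of 1.66 (95% interval 1.61 to 1.70) and a log2 ratio of 0.72, under 2-fold.

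**Figure D4:**
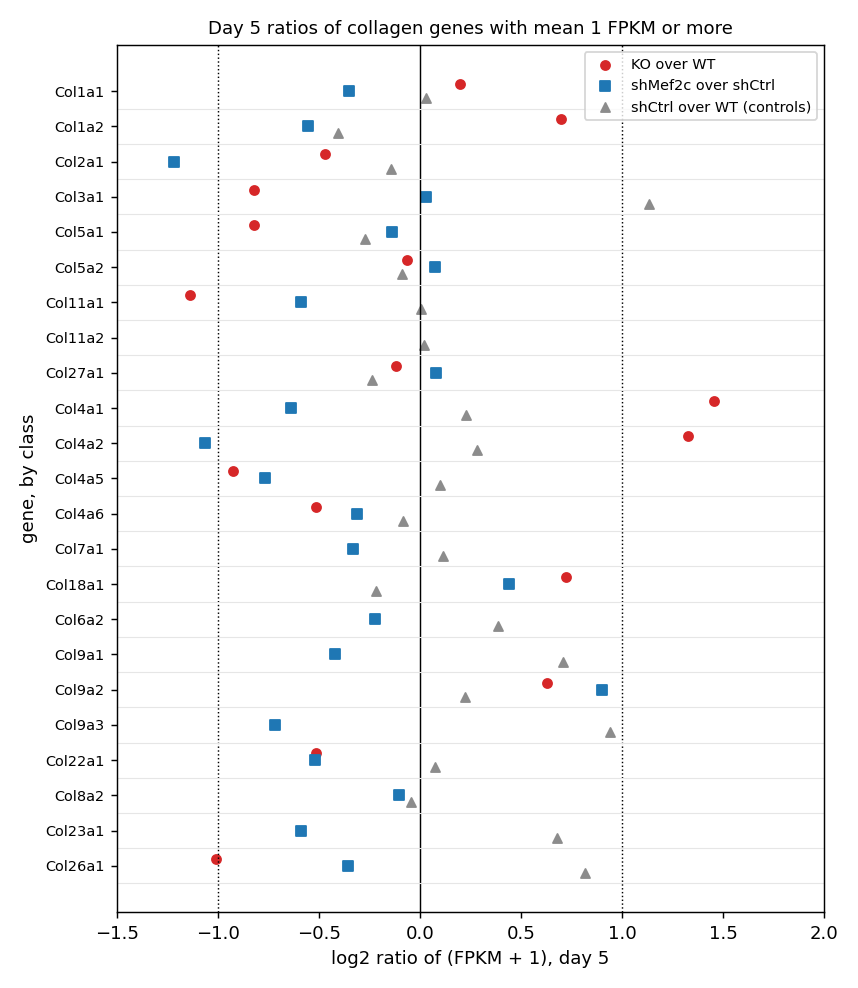
Log2 ratio of (FPKM + 1) at day 5 for each collagen gene whose pair mean reached 1 FPKM, by class from top to bottom. Circles are KO over WT, squares shMef2c over shCtrl and triangles the control pair shCtrl over WT, and dotted lines mark 2-fold. In KO, Col4a1 (1.45) and Col4a2 (1.33) lie beyond the right line, and in shMef2c, Col2a1 (-1.22) and Col4a2 (-1.06) lie beyond the left one.

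Col11a1, the type XI chain that joins type II collagen in cartilage fibrils, had 1.18 FPKM in KO, 3.80 in WT, 2.20 in shMef2c and 3.82 in shCtrl at day 5. Its read ratio of KO over WT was 0.311 (95% interval 0.268 to 0.360) and its log2 ratio -1.14, while WT and shCtrl were almost equal. At day 0 it already stood at 1.23 RPKM in KO, 2.20 in WT, 2.14 in the library labelled shMef2c and 1.67 in shCtrl, with KO lowest. Col26a1 had a read ratio of KO over WT of 0.303 (95% interval 0.221 to 0.411) at day 5 and a log2 ratio of -1.01, from 56 reads in KO and 187 in WT. The control libraries also differed in it, with 2.05 (95% interval 1.71 to 2.46) for shCtrl over WT. Col3a1 had a read ratio of 0.305 (95% interval 0.232 to 0.396) and a log2 ratio of -0.82, which the pseudocount keeps under 2-fold, and Col5a1 had 0.478 (95% interval 0.430 to 0.531). Col2a1 had 0.709 (95% interval 0.679 to 0.741), and Col5a2 had 0.936 (95% interval 0.812 to 1.08), an interval that includes 1. Both type I chains were above their WT level, unlike the fibrillar genes just given, with 1.26 (95% interval 1.04 to 1.53) for Col1a1 and 1.73 (95% interval 1.58 to 1.90) for Col1a2. Over all 44 genes the interval of KO over WT lay above 1 in 11 and below 1 in 15, where 26.9% of all day 5 features were above and 26.6% below.

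Most compared markers of another cell type were higher in KO than in WT at day 5, as were Col4a1 and Col4a2. Of 14 markers of visceral and parietal endoderm, 11 had a mean of 1 FPKM or more, 8 of them were higher in KO and 1 was lower (median log2 ratio 2.14). Their summed level was 174 FPKM in KO, 51.2 in WT, 63.1 in shMef2c and 87.3 in shCtrl. None was at 0 at day 5. Against shCtrl, Apoa1 (10.0 FPKM in KO against 22.1), Sox17 (3.47 against 6.17), Gata4 (2.88 against 3.4) and Foxa2 (6.45 against 37.4) were lower in KO. The other markers of this list were higher in KO than in shCtrl. Afp, a serum protein of yolk sac endoderm, had 23.3 FPKM in KO against 0.30 in WT, and Srgn, a proteoglycan core protein abundant in parietal endoderm, had 37.4 against 1.92, whereas the endoderm regulator Foxa2 had 6.45 in KO against 30.4 in WT. Their part in the collagen ratios was not tested. Of 7 pluripotency markers 5 were also higher in KO, with a sum of 599 FPKM against 289 in WT, and of 6 neural progenitor markers 3 were lower. Beside the lower Col11a1, both notochord and cartilage markers compared were lower in KO, with Shh at 3.18 FPKM in KO against 20.3 in WT and Sox9 at 1.05 against 3.45. Of 3 mesoderm and streak markers compared 2 were lower, with T at 0.35 FPKM in KO against 40.5 in WT. Their part was not tested either. Beside these marker counts, 4.05% of all genes were called higher in KO and 3.26% lower.

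Several genes whose products share the basement membrane with type IV collagen were higher in KO as well. Of 18 such genes 12 reached a mean of 1 FPKM over KO and WT, 6 were called higher and none lower, with a median log2 ratio of 0.80. The laminin chains Lama1 (28.3 FPKM in KO against 8.90 in WT), Lamb1 (45.6 against 16.4) and Lamc1 (45.2 against 17.0) form laminin-111, the early embryonic laminin. Nid2, which links laminin to type IV collagen, stood at 51.0 FPKM in KO against 19.1 in WT. Also called higher were Nid1, with 6.99 FPKM in KO against 2.96 in WT, and Sparc, a collagen-binding protein, with 150.8 in KO against 58.4 in WT. This list was described by counts only, at a background of 4.05% higher and 3.26% lower over all genes.

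**Figure D5:**
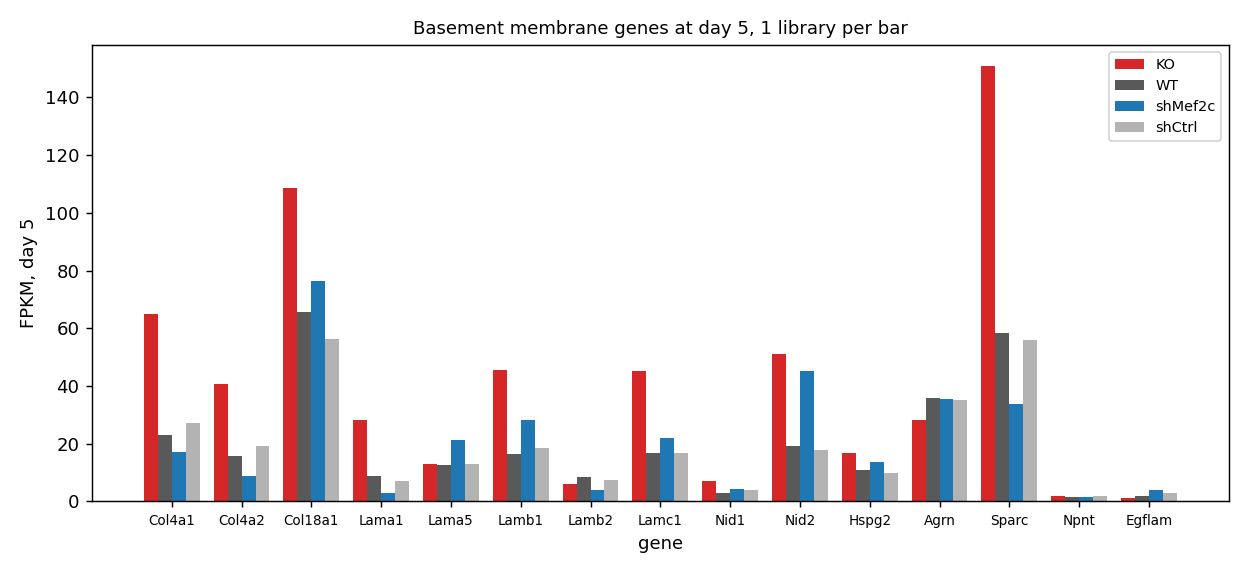
FPKM at day 5 of Col4a1, Col4a2, Col18a1 and the 12 listed basement membrane genes whose mean over KO and WT reached 1 FPKM, 1 bar per library. KO is highest for Col4a1, Col4a2, Col18a1, Lama1, Lamb1, Lamc1, Nid1, Nid2, Hspg2 and Sparc, with Sparc at 150.8 FPKM in KO, 58.4 in WT, 33.8 in shMef2c and 55.8 in shCtrl.

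In shMef2c at day 5, Col2a1 and Col4a2 were lower than in shCtrl and no collagen gene was called higher. Of the 44 genes 22 reached a mean of 1 FPKM in the pair, 0 were called higher (background 4.49%) and Col2a1 and Col4a2 were called lower (background 4.78%). Their median log2 ratio was -0.35, beside -0.05 for all genes. Col2a1 had a read ratio of shMef2c over shCtrl of 0.410 (95% interval 0.387 to 0.433) and a log2 ratio of -1.22, and shMef2c was the lowest of the 4 day 5 libraries. Col4a2 had 0.451 (95% interval 0.424 to 0.480) and -1.06. That call was close to the threshold and was lost with TMM factors (-0.98), against WT in place of shCtrl (-0.78) and against the mean of both controls (-0.93). Col4a1 had a read ratio of 0.628 (95% interval 0.600 to 0.658) and a log2 ratio of -0.64, under 2-fold, and Col4a5 had 0.484 (95% interval 0.423 to 0.553).

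Among the remaining genes in shMef2c, values lay on both sides of shCtrl. The type I chains had read ratios over shCtrl of 0.619 (95% interval 0.492 to 0.776) for Col1a1 and 0.595 (95% interval 0.515 to 0.688) for Col1a2. Col11a1 had 0.576 (95% interval 0.511 to 0.648) and Col26a1 had 0.742 (95% interval 0.634 to 0.869). Col3a1, with 1.03 (95% interval 0.925 to 1.14), and Col5a2, with 1.08 (95% interval 0.934 to 1.25), had intervals that include 1, and Col5a1 had 0.884 (95% interval 0.802 to 0.975). Col9a2, a chain of the FACIT type IX, had 4.55 FPKM in shMef2c against 1.97 in shCtrl, a read ratio of 2.31 (95% interval 1.89 to 2.84) and a log2 ratio of 0.90, the largest above 0. Col18a1, which was above its control in KO too, had 1.36 (95% interval 1.32 to 1.40). Over all 44 genes the interval lay above 1 in 6, below 1 in 19 and included 1 in the rest, where 24.9% of all day 5 features were above and 31.4% below.

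Beside these ratios, the 6 neural progenitor markers were all lower in shMef2c at day 5 and the 7 pluripotency markers were all higher, with a sum of 797 FPKM against 205 in shCtrl. The 4 mesoderm and streak markers with a mean of 1 FPKM or more were also higher. Of 8 endoderm markers compared 2 were lower and none higher. Among notochord and cartilage markers, 3 had a mean of 1 FPKM or more. Noto had 6.52 FPKM in shMef2c against 1.01 in shCtrl, Shh had 13.4 against 28.5 and Sox9 had 2.78 against 6.16. The part of these cell types in the collagen ratios was not tested. Of the 12 basement membrane partners compared, Nid2 was higher (45.2 FPKM in shMef2c against 17.9 in shCtrl) and Lama1 lower (2.97 against 7.12), with a median log2 ratio of 0.24. Beside these marker and partner counts, 4.49% of all genes were called higher in shMef2c and 4.78% lower.

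In the control libraries 1 collagen gene was called at day 5. The read-ratio interval excluded 1 in 18 of the 44, and the share of all features was not computed for this pair. For KO over WT, 26.9% of all day 5 features had an interval above 1 and 26.6% below. Of 23 genes compared between shCtrl and WT, Col3a1 was called higher in shCtrl (background 0.724%) and none lower (background 0.272%), with a median log2 ratio of 0.07 beside 0.02 for all genes. Col3a1 had 4.90 FPKM in shCtrl against 1.69 in WT, a read ratio of 2.90 (95% interval 2.51 to 3.37). Col9a1, Col9a3, Col23a1 and Col26a1 had read ratios of shCtrl over WT between 2.05 and 2.82 and stayed under 2-fold with the pseudocount. Of 9 endoderm markers compared, 3 were higher in shCtrl than in WT, and of 6 neural progenitor markers none was called. Against shCtrl in place of WT, 9 collagen genes were called in KO: Col1a2, Col4a1 and Col4a2 higher (background 4.65%) and Col3a1, Col4a5, Col9a3, Col11a1, Col23a1 and Col26a1 lower (background 5.52%). Against WT in place of shCtrl, Col3a1 and Col9a2 were called higher in shMef2c (background 3.99%) and Col2a1 lower (background 3.22%).

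KO and shMef2c, each set against its own control library at day 5, both had intervals that exclude 1 in 20 collagen genes. In 12 of them both lines were below their control, namely Col2a1, Col4a5, Col4a6, Col5a1, Col7a1, Col9a1, Col9a3, Col11a1, Col11a2, Col22a1, Col23a1 and Col26a1. In 4 genes both were above (Col6a5, Col9a2, Col17a1 and Col18a1), and in Col1a1, Col1a2, Col4a1 and Col4a2 KO was above WT while shMef2c was below shCtrl. No collagen gene showed the opposite pattern. Of all 21069 features of the day 5 tables, 8573 had both intervals away from 1, beside 20 of the 44 collagen genes. Among those 8573, 42.9% were below in both lines, 37.0% above in both, 11.3% above in KO and below in shMef2c, and 8.85% the reverse.

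At day 0, KO and WT had no collagen gene called among the 19 compared, at a background of 1.35% higher and 1.58% lower, and the collagen median was -0.03 beside 0.03 for all genes. All 8 fibrillar genes compared had a ratio below 0 in KO, while 53.4% of all genes had one above 0. The read ratio of KO over WT was 0.912 (95% interval 0.887 to 0.938) for Col1a1, 0.908 (95% interval 0.875 to 0.942) for Col1a2 and 0.849 (95% interval 0.794 to 0.908) for Col3a1. Col2a1 had 0.525 (95% interval 0.390 to 0.702) and Col11a1 0.552 (95% interval 0.457 to 0.664), at levels of 2.20 RPKM or less. The other fibrillar genes compared had 95% intervals that include 1. These were 0.894 to 1.01 for Col5a1, 0.931 to 1.05 for Col5a2 and 0.757 to 1.15 for Col5a3. The control libraries had 0 calls in either direction among 18 genes at day 0, at backgrounds of 0.755% and 0.512%, and Col18a1 differed most, with a read ratio of shCtrl over WT of 1.45 (95% interval 1.40 to 1.51).

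The library labelled shMef2c at day 0 had higher levels than shCtrl in each of the 20 collagen genes that reached a mean of 1 RPKM, none of them by 2-fold. Of these 20, 0 were called in either direction (backgrounds 0.132% higher and 0.0991% lower), yet all 20 had a ratio above 0, against 57.3% of all genes. Scarcer genes lay on both sides, with Col23a1 at 0.28 RPKM in the library labelled shMef2c against 0.11 in shCtrl and Col8a2 at 0.10 against 0.18. The interval of Col8a2 (0.220 to 1.36) includes 1. With no filter on low values, 35 of 43 ratios were above 0, with a median of 0.139 beside 0.036 for all genes. The collagen median was 0.56 beside 0.03 for all genes, and 19 of 20 ratios stayed above 0 after centring, with TMM factors or with DESeq2 size factors. Against WT, 17 of 19 ratios were above 0. At 1.5-fold, a threshold added after the values were seen, 9 genes were called higher (background 2.07%): Col1a1, Col1a2, Col3a1, Col5a1, Col5a2, Col6a1, Col6a2, Col8a1 and Col12a1.

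The sizes were much alike, with read ratios over shCtrl of 1.62 (95% interval 1.58 to 1.66) for Col1a1, 1.66 (95% interval 1.61 to 1.72) for Col1a2, 1.75 (95% interval 1.65 to 1.86) for Col3a1, 1.68 (95% interval 1.60 to 1.77) for Col5a2 and 1.80 (95% interval 1.71 to 1.89) for Col12a1. The type IV chains were somewhat lower in ratio, with 1.46 (95% interval 1.38 to 1.55) for Col4a1 and 1.54 (95% interval 1.43 to 1.65) for Col4a2. Col18a1, with 1.01 (95% interval 0.975 to 1.05), and Col2a1, with 1.15 (95% interval 0.890 to 1.48), had intervals that include 1. Of 16 feeder fibroblast markers, all 11 with a mean of 1 RPKM or more were above 0 as well (median log2 ratio 0.64), with Dcn, a small proteoglycan that binds collagen fibrils, at 16.4 RPKM in the library labelled shMef2c against 8.87 in shCtrl. The part of feeder cells in the collagen ratios at day 0 was not tested.

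Genes that modify, cross-link and break down collagen were compared from lists, against the shares of all genes called in KO (4.05% higher and 3.26% lower). Of 18 genes for modification and folding, 16 were compared between KO and WT at day 5, and P4ha2, a prolyl hydroxylase subunit (10.2 FPKM in KO against 3.82 in WT), was higher and Fkbp14, an endoplasmic reticulum prolyl isomerase (2.35 against 6.29), lower. Of 14 genes compared for secretion, trimming and crosslinking, Bmp1, the procollagen C-proteinase, had 3.65 FPKM in KO against 11.8 in WT and Loxl2, a lysyl oxidase, 2.59 against 6.22, and both were called lower. The other 12 were not called. Mmp14, a membrane collagenase, was the only one of 6 degradation genes called in KO, at 4.48 FPKM against 21.3 in WT. Among 10 fibril partners Bgn was called higher, at 2.09 FPKM in KO against 0.51 in WT. None of 3 collagen receptors compared was called, with Ddr1 at 16.1 FPKM in KO against 31.0 in WT.

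In shMef2c at day 5 the same lists held 2 calls, both higher, among the 16 genes compared for modification and folding, 13 for secretion, 10 fibril partners, 6 degradation genes and 3 receptors, a share no larger than that of all genes (4.49% higher and 4.78% lower). Crtap, part of the prolyl 3-hydroxylation complex, stood at 24.2 FPKM in shMef2c against 10.5 in shCtrl, and Pcolce2, an enhancer of procollagen C-proteinase, at 6.38 against 1.72. None of the fibril partners, degradation genes or receptors compared was called. At day 0 none of the 6 lists held a call for the library labelled shMef2c over shCtrl, but the median log2 ratio was 0.72 for fibril partners (11 of 12 above 0) and 0.42 for degradation genes (9 of 9 above 0), beside 0.26 for modification and folding, 0.40 for receptors (4 of 5 above 0), 0.15 for secretion and crosslinking and 0.14 for basement membrane partners. Lox, a lysyl oxidase that cross-links collagen, had 89.6 RPKM in the library labelled shMef2c against 51.5 in shCtrl. The lists of fibril partners and feeder markers have Dcn, Lum and Postn in common.

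The authors' deposited table for KO over WT at day 5, in which no change is under 2-fold, lists 13 of the 44 collagen genes. It lists 2253 features in all, where the day 5 libraries together held 21069. Its log2 ratios are 1.49 for Col4a1, 1.38 for Col4a2 and 1.12 for Col6a5, and the other 10 are lower in KO, from -1.06 for Col5a1 to -2.74 for Col9a1. The authors' deposited table for shMef2c over shCtrl lists 9 collagen genes among 2758 features. Of the 9, Col6a5, Col6a4, Col14a1 and Col9a2 are higher and Col11a2, Col2a1, Col4a2, Col9a3 and Col4a5 lower. Of the higher genes in that deposited table Col6a5 (84 against 13 reads), Col6a4 (57 against 12 reads) and Col14a1 (37 against 9 reads) were below 1 FPKM in every day 5 library.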

How the data were processed

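RNA was purified with oligo(dT) beads, and the 8 libraries, 1 per group, were grouped by their labels. The labels of the day 5 libraries give no day, which was taken from the description of the series. Depth was 20312032 to 26834802 estimated reads per library. For day 5 the authors deposited estimated counts and FPKM per library, per the file headers, and a missing feature was set to 0. A single table of estimated counts and RPKM was deposited for day 0, per the file headers. Their deposited day 5 comparison tables hold log2 ratios and p-values adjusted as a false discovery rate, from a Poisson method per the labels, and only the log2 ratios are given here. HISAT, HISAT2, Bowtie, Bowtie2, RSEM and mouse build mm9 are named, with no role or version, per the submitters' processing notes. The use of strand in counting is not stated there, so reads of overlapping genes, as at the starts of Col4a1 and Col4a2, cannot be told apart.

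Members and lists were chosen with earlier results of these data known. Ratios were log2((level + 1)/(level + 1)) for genes whose mean across both libraries reached 1, computed over all features, with a call at 2-fold or more. Ratios between days were centred on the median. Intervals are exact 95% Clopper-Pearson intervals on shares of reads and cover counting error only. Values in all libraries are given for genes called within a day or reaching a level of 10, and at most 4 genes per list and comparison were to be named besides. For basement membrane partners in KO, Nid1 and Sparc were added after their values were seen, to name all 6 called. Other genes were named after their values were seen. The ratio rule was tested on simulated data. Alternatives were another pseudocount (0.1), no filter or a mean of 5, centring, TPM, TMM factors of edgeR 4.0.16, size factors of DESeq2 1.42.0 and the other control library. Computation used Python 3.11.15, pandas 2.3.3, scipy 1.17.1 and R 4.3.3. Coding sequences came from GENCODE M21, taking the longest coding transcript of each gene, and the builds of sequences and files were not mixed.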

Additional observations from a re-analysis of the deposited data

Results flagged for a closer look

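Col4a2 moved in opposite directions in the lines at day 5, with a log2 ratio of 1.33 in KO over WT (40.8 FPKM against 15.7) and of -1.06 in shMef2c over shCtrl (8.69 FPKM against 19.3). Both ratios passed 2-fold, on opposite sides of 0, but that of shMef2c fell short of it with TMM factors (-0.98), against WT (-0.78) and against the mean of both control libraries (-0.93). With 1 library per group, the difference between these effects was not tested.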

How the results depend on the processing

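Of 77 counts of called collagen genes under an alternative, 63 stayed within 1.5 times and 14 did not, and of 871 single values 743 stayed within their counting interval and 128 moved, with no called value changing sign. With a pseudocount of 0.1 the count was 7 in place of 4 for KO over WT at day 5, 5 in place of 2 for shMef2c over shCtrl and 5 in place of 1 for shCtrl over WT. With the filter raised to a mean of 5 it was 2 for KO over WT, 0 for shCtrl over WT, and for day 5 over day 0 it was 7 in place of 12 in WT, 8 in place of 13 in shMef2c and 7 in place of 14 in shCtrl, since fewer genes were compared. With TPM, which lets more genes past the filter, it was 7 for KO over WT (2 higher and 5 lower, in place of 2 and 2), 2 for shCtrl over WT and 19 for day 5 over day 0 in WT (8 higher and 11 lower, in place of 3 and 9). With TMM factors it was 1 for shMef2c over shCtrl, and with shCtrl as control it was 9 for KO. At 1.5-fold, added after the data were seen, it was 9 in place of 0 for the library labelled shMef2c over shCtrl at day 0. With the mean of both controls, also added later, it was 5 for KO and 2 for shMef2c at day 5, where Col4a2 was no longer called and Col9a2 was. The cause of the moves with TMM factors or another control was not tested. Genes below about 10 reads, such as Col4a3, Col10a1 and Col28a1, are at the limit of these depths. No paired analysis was possible because the groups compared within a day have 1 library each and share no replicate numbers. The days were compared within each line, and the 4 lines, which differ in genotype or hairpin, were not taken as replicates.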

Other observations

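Other chain partners also changed proportion between the days, as ratios of levels per length. Col8a1 over Col8a2, the chains of type VIII, was 97.0 in KO, 77.1 in WT, 104 in the library labelled shMef2c and 32.1 in shCtrl at day 0, and 0.310 in KO, 0.0820 in WT, 0.0500 in shMef2c and 0.113 in shCtrl at day 5. Few reads stand behind these ratios. Col8a2 had 5 reads in KO, 6 in WT, 9 in the library labelled shMef2c and 16 in shCtrl at day 0. Col8a1 had 12 in KO, 13 in WT, 7 in shMef2c and 17 in shCtrl at day 5. Col6a1 over Col6a2 was 1.39 to 1.46 in the day 0 libraries and 0.729 to 0.877 in the day 5 libraries. Col5a1 over Col5a2 was 0.710 to 0.785 at day 0 and, at day 5, 1.10 in KO against 2.16 in WT and 1.53 in shMef2c against 1.87 in shCtrl. Col4a5 over Col4a6 was 5.29 to 6.80 at day 0 and 1.71 to 2.68 at day 5.

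The type IX chains were uneven. At day 0 Col9a2 was at 3.35 to 4.79 RPKM in the 4 libraries while Col9a1 was at 0 to 0.11. At day 5 Col9a1 was at 0.09 FPKM in KO (8 reads) against 0.60 in WT (49 reads), and at 0.95 in shMef2c against 1.61 in shCtrl, while Col9a2 was at 2.94 in KO against 1.55 in WT and at 4.55 in shMef2c against 1.97 in shCtrl. Col9a1 and Col9a2 thus lay on opposite sides of the line's own control in both lines. Neither passed 2-fold against that control with the pseudocount where it was compared. In KO the opposite sides held against either control library, but in shMef2c only against shCtrl. Against WT both genes were above the control in shMef2c, with Col9a1 at 0.95 FPKM against 0.60 and Col9a2 at 4.55 against 1.55. The control libraries themselves differed in Col9a1, at 0.60 FPKM in WT and 1.61 in shCtrl. No explanation was tested.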
